A study of Homo sapiens with 6 samples.

Results

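The sterol branch of cholesterol synthesis was examined through 9 enzymes, FDFT1, SQLE, LSS, CYP51A1, MSMO1, NSDHL, EBP, SC5D and DHCR7, which were chosen by their known place between farnesyl diphosphate and cholesterol. Each of the 9 was listed once in the deposited table of 6357 loci, of which 4926 carry a gene name. RNA was sequenced from HepG2 cells, a human line derived from a liver tumour, as 3 wild-type (WT) libraries and 3 libraries in which FN3K had been knocked out with CRISPR-Cas (FN3K KO). FN3K is a kinase that removes sugars from glycated proteins. Both groups were grown alike, on separate plates in EMEM with fetal bovine serum, with no drug or time course, and how many KO clones lie behind the plates is not given in the sources used here. The p-values below therefore measure the spread between plates, which may be technical, and a property of the clone and the loss of FN3K cannot be told apart.

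Cholesterol is built in the endoplasmic reticulum from acetyl-CoA. The mevalonate branch makes farnesyl diphosphate, squalene synthase commits it to sterols, and a chain of oxidations, reductions and isomerisations then turns lanosterol into cholesterol. Hepatocytes run this pathway at a high rate and export its product in lipoproteins and bile. The genes of the pathway are known targets of SREBP2, a transcription factor held in the membrane while sterols are plentiful and released by cleavage when they are scarce. SREBP2 binds sterol regulatory elements and usually acts with NF-Y, which binds CCAAT boxes, and with Sp1, which binds GC boxes.

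The values are FPKM, fragments scaled to transcript length and library size, so levels may be compared between genes per length. Sums of FPKM over all loci lay between 289983 and 314164 per library. Correlations of log2(FPKM + 1) were 0.980 to 0.983 within groups and 0.923 to 0.931 across them, over loci, which are not independent. The number of reads behind each value is unknown, because the files hold no counts. FN3K itself had 24.3 ± 3.05 FPKM (SD, n = 3) in WT and 0.837 ± 0.168 FPKM in FN3K KO, a log2 fold change of −3.78, in the direction of the labels. Of 12 hepatocyte markers, 9 were listed, with group means from 34.8 FPKM (HNF4A, KO) to 6206 FPKM (AFP, KO). In KO, 6 of them were called higher and 1 lower, beside 21.2% and 36.5% of all loci. None of 6 fibroblast markers was listed, and of 6 leukocyte markers only CD14 was, at 1.63 ± 1.10 FPKM in WT and 14.5 ± 1.47 FPKM in KO. The part of these markers in the results was not tested. In bulk RNA, more cells of a kind and more RNA per cell cannot be told apart.

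Promoter sequences are given because the 9 genes, which lie far apart in the genome, were all higher in FN3K KO, as described further on. Windows of 250 bases before an annotated start were taken from RefSeq (GRCh38.p14) for 7 of the 9 genes, 9 windows in all, and the promoters of FDFT1 and SQLE were not analysed here. CCAAT, searched on both strands, was found in 7 of these 9 windows and in 6 of the 7 genes, against 32.0% of 35116 windows of the same length. The SC5D windows overlap each other, and the CCAAT match in each is the same site. MSMO1 held 4 matches, NSDHL 5, EBP 3 and CYP51A1 none. The GC box GGGCGG was found in 7 of 9 windows (42.6% of all windows), and NSDHL had none. TCACNCCAC, a form of the sterol regulatory element, was in none of the 9 windows, against 0.883% of all. The looser CACNCCAC, which lies within it, was in 1 window, of SC5D (4.87% of all). The E-box CACGTG was in both SC5D windows (6.34% of all), again as the same site. A match is a run of letters and not a measured site. The runs for MSMO1, the gene with the greatest fold change, for NSDHL, the gene with the most CCAAT matches, and for LSS are given 5′ to 3′ up to the first base that GENCODE 29 places in an exon, at chr4:165327419-165327622 (plus strand), chrX:152830813-152830966 (plus strand) and chr21:46228825-46229024 (minus strand). Capitals mark CCAAT or its reverse complement ATTGG.
MSMO1: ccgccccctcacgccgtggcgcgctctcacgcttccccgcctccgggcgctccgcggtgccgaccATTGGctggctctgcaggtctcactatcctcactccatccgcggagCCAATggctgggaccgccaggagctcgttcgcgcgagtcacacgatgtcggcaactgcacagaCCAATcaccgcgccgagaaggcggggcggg
NSDHL: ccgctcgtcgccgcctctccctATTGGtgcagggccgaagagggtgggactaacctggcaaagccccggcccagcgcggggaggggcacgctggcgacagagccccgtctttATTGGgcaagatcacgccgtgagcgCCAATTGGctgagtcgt
LSS: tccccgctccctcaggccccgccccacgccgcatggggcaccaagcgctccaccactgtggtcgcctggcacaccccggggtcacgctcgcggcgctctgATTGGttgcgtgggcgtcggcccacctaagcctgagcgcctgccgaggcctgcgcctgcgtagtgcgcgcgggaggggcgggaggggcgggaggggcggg
In these runs MSMO1 shows 3 of its 4 matches, NSDHL 4 of its 5, of which 2 overlap each other, and LSS its only one. MSMO1 and EBP, with the greatest and the smallest fold change of the 9, each held 3 or more matches in the whole window. These windows are not alike, since GENCODE 29 places all 250 bases of the EBP window in exons and 46 of the MSMO1 window. For the SC5D windows it was 250 and 215 bases.

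The 9 genes lie on 6 chromosomes and share no locus. In GENCODE 29 (GRCh38) FDFT1 is at chr8:11795573-11839309, SQLE at chr8:124998497-125022283, LSS at chr21:46188141-46228824, CYP51A1 at chr7:92112151-92134803 and MSMO1 at chr4:165327623-165343160. NSDHL is at chrX:152830967-152869729, EBP at chrX:48521158-48528716, SC5D at chr11:121292453-121308694 and DHCR7 at chr11:71428193-71452868. LSS, CYP51A1 and DHCR7 are on the minus strand and the others on the plus strand. CYP51A1 has 3 processed pseudogenes, and it overlaps 2 annotated genes on its own strand and 1 antisense gene. FDFT1, LSS and DHCR7 also overlap RNA genes on the opposite strand, and EBP a short RNA on its own. Whether reads were counted by strand is not given in the sources used here, so fragments from such overlaps may be part of these values.

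All 9 enzymes were higher in FN3K KO at an adjusted p under 0.05 (limma, a linear model per locus with variances moderated across loci, Benjamini-Hochberg over all loci), where 21.2% of all loci were called higher and 36.5% lower. At an unadjusted p under 0.05 with a log2 fold change over 1, 8 of 9 passed, all but EBP, against 4.31% of all loci. For all 9 the lowest KO library lay above the highest WT library, as it did for 23.6% of all loci, while 39.8% of all loci had the KO libraries wholly below the WT libraries. The median log2 fold change of the 9 was 2.46, beside −0.14 over all loci. The fold changes ran from 1.59 for EBP to 10.1 for MSMO1, on the scale of log2(FPKM + 1), which slightly understates the change of low genes. A single gene with 3 libraries a group cannot go below an exact permutation p of 0.10, and all 9 reached that value.

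**Figure D1:**
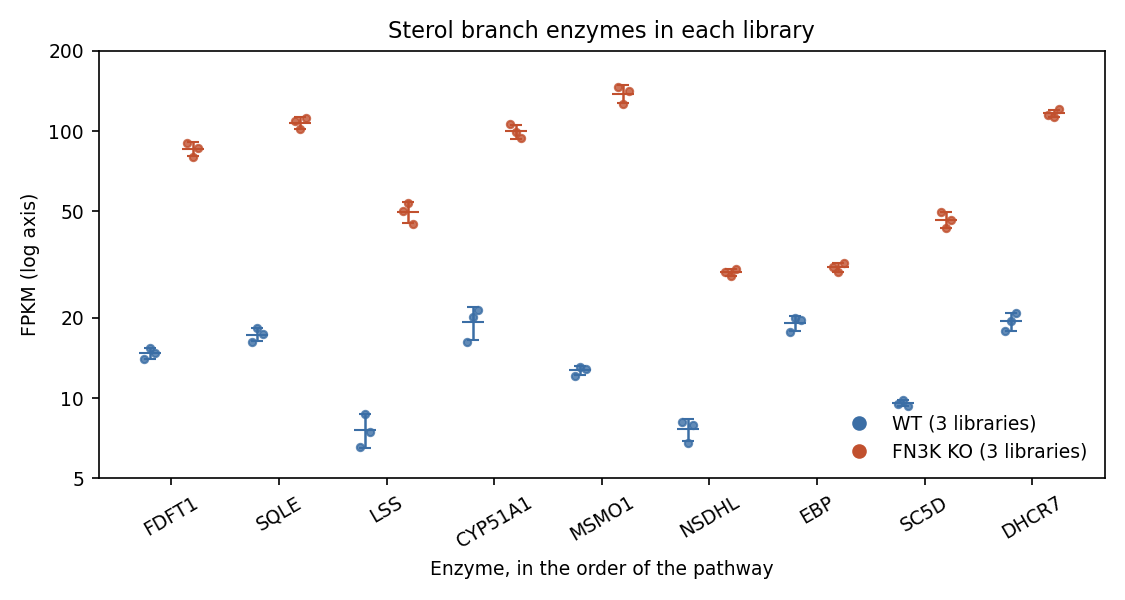
FPKM of each sterol branch enzyme (log axis) in the 3 WT and the 3 FN3K KO libraries, in pathway order, with the mean and SD of each group. The KO points lie above the WT points for all 9 genes, with the widest gap for MSMO1 and the narrowest for EBP.

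FDFT1 and SQLE open the branch. FDFT1, squalene synthase, joins a pair of farnesyl diphosphates into squalene. It had 14.0, 15.4 and 14.8 FPKM in WT replicates 1 to 3 and 90.4, 80.0 and 86.7 FPKM in KO replicates 1 to 3. The log2 fold change was 2.46 (SE 0.06; limma adjusted p = 2.4e-08), and the lowest KO library stood at 5.21 times the highest WT library. SQLE, squalene monooxygenase, adds the epoxide and is a known rate-limiting step that is degraded when cholesterol is plentiful. Its levels were 16.2, 18.2 and 17.4 FPKM in WT and 109, 101 and 112 FPKM in KO, a log2 fold change of 2.57 (SE 0.06; limma adjusted p = 2.4e-08). Both genes rose by close to 6 times in mean FPKM, with ratios of 5.82 and 6.23.

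LSS, lanosterol synthase, closes the epoxide into the ring system. It was among the lowest of the 9 in WT, at 6.58, 8.74 and 7.45 FPKM, and had 50.2, 53.8 and 44.8 FPKM in KO. Its log2 fold change was 2.56 (SE 0.10; limma adjusted p = 3e-07). The WT libraries of LSS spread by 1.08 FPKM (SD), which is small beside the difference of the means.

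CYP51A1 and MSMO1 begin the removal of the extra methyl groups of lanosterol. CYP51A1, the lanosterol 14-alpha demethylase and a cytochrome P450, had 16.2, 20.2 and 21.4 FPKM in WT and 106, 99.0 and 94.2 FPKM in KO. Its log2 fold change was 2.32 (SE 0.10; limma adjusted p = 3.7e-07), and it varied more between the WT libraries than any other of the 9, with an SD of 2.70 FPKM. MSMO1, the C4-methyl sterol oxidase, had 12.1, 13.1 and 12.9 FPKM in WT and 147, 126 and 142 FPKM in KO. This was the greatest change of the 9, a log2 fold change of 3.34 (SE 0.07; limma adjusted p = 1.9e-08), and it ranked 2 of 6357 loci from the top. The 95% interval of the MSMO1 fold change, 9.11 to 11.3, lay above the intervals of the other 8, of which LSS reached highest, to 6.95.

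NSDHL, the dehydrogenase that follows MSMO1 in C4 demethylation, moved less. It had 8.14, 6.81 and 7.95 FPKM in WT and 29.7, 28.7 and 30.5 FPKM in KO, a log2 fold change of 1.83 (SE 0.08; limma adjusted p = 4.5e-07). HSD17B7, which completes that cycle, was not analysed here. EBP, the isomerase that shifts the ring double bond and also binds the drug emopamil, changed least. It had 17.7, 19.9 and 19.7 FPKM in WT and 30.9, 29.7 and 32.0 FPKM in KO, a log2 fold change of 0.67 (SE 0.07; limma adjusted p = 5.2e-05). The groups of EBP did not overlap, but its 95% interval of 1.43 to 1.76 times stayed below the interval of NSDHL, 3.14 to 4.02 times. EBP ranked 573 of 6357 loci, and the other 8 ranked between 2 and 66.

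SC5D and DHCR7 act at the end of the chain. SC5D, lathosterol oxidase, puts in a ring double bond and acts before DHCR7. It had 9.51, 9.84 and 9.34 FPKM in WT and 49.6, 43.2 and 46.3 FPKM in KO, a log2 fold change of 2.16 (SE 0.07; limma adjusted p = 6.8e-08). DHCR7 reduces 7-dehydrocholesterol, also the precursor of vitamin D, to cholesterol, and its loss causes Smith-Lemli-Opitz syndrome. It had 17.8, 19.4 and 20.9 FPKM in WT and 115, 113 and 121 FPKM in KO, a log2 fold change of 2.53 (SE 0.07; limma adjusted p = 2.4e-08). The last step thus rose 6.01 times in mean FPKM, close to the first 3 enzymes of the branch.

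**Figure D2:**
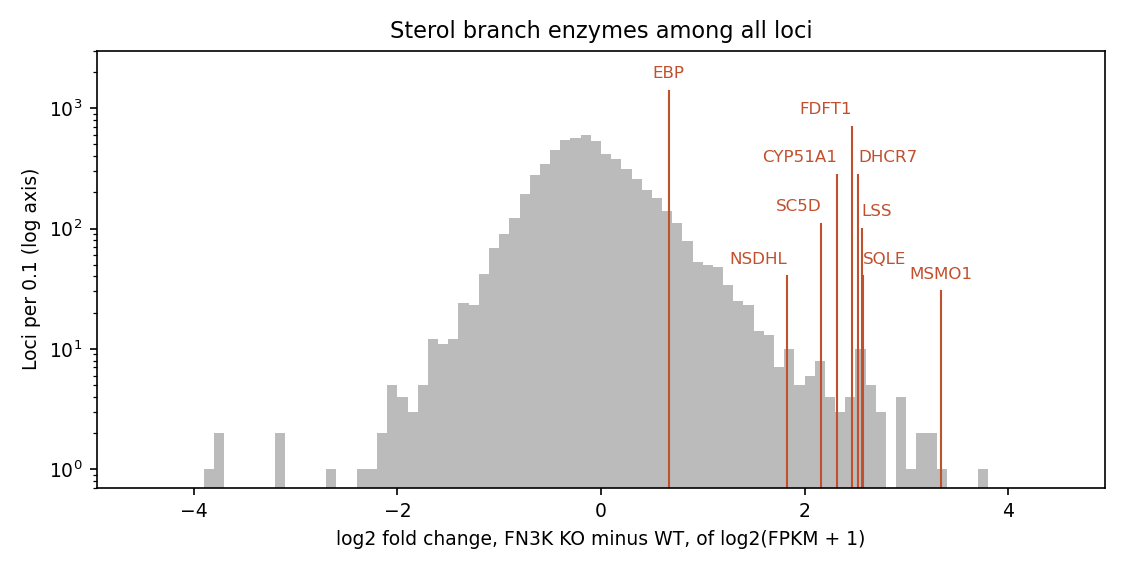
Histogram of the log2 fold change of all 6357 loci (FN3K KO minus WT, bins of 0.1, log axis for the number of loci), with a line at each sterol branch enzyme. MSMO1 is at 3.34 and 7 others between 1.83 and 2.57, while EBP at 0.67 stands within the bulk of the loci.

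The order of the levels changed between the groups. In WT the order of mean FPKM from low to high was LSS, NSDHL, SC5D, MSMO1, FDFT1, SQLE, EBP, CYP51A1 and DHCR7. The ranges of the neighbours LSS and NSDHL over the libraries overlapped, as did those of all neighbours from SQLE to DHCR7. Within each WT library, however, SQLE was below EBP and DHCR7. EBP, CYP51A1 and DHCR7 changed places between the WT libraries and cannot be ranked, and neither can LSS and NSDHL. In KO the order was NSDHL, EBP, SC5D, LSS, FDFT1, CYP51A1, SQLE, DHCR7 and MSMO1. The ranges overlapped for NSDHL and EBP, for SC5D and LSS, and for CYP51A1 and SQLE. Within each KO library NSDHL was below EBP and CYP51A1 below SQLE, while SC5D and LSS changed places between libraries. MSMO1 moved from the fourth lowest place to the highest, and EBP from a place among the top 4 to one of the lowest 2. The highest level was 2.71 to 2.96 times the lowest in the WT libraries and 4.38 to 4.94 times in the KO libraries.

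Summed over the 9 enzymes, the FPKM were 127 ± 7.64 (SD, n = 3) in WT and 704 ± 26.7 in KO, a ratio of 5.54 (exact permutation p = 0.10, two-sided, the smallest that 3 against 3 allows). This was 0.0394% to 0.0452% of all listed FPKM in the WT libraries and 0.226% to 0.251% in the KO libraries. The share of MSMO1 in the summed FPKM of the 9 was 9.98% ± 0.231 in WT and 19.6% ± 0.815 in KO. The share of EBP was 15.0% ± 0.113 in WT and 4.39% ± 0.133 in KO, although its own level was higher. NSDHL had a share of 6.03% ± 0.849 in WT and 4.21% ± 0.119 in KO, and SC5D 7.54% ± 0.474 and 6.58% ± 0.214. SQLE had 13.6% ± 0.353 in WT and 15.3% ± 0.445 in KO, and FDFT1 11.6% ± 0.324 and 12.2% ± 0.286. For these 6 genes the shares of the groups did not overlap, while the shares of LSS, CYP51A1 and DHCR7 did. Shares of one sum depend on each other, and they were not tested. How often such shares separate in other sets of genes was not examined.

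**Figure D3:**
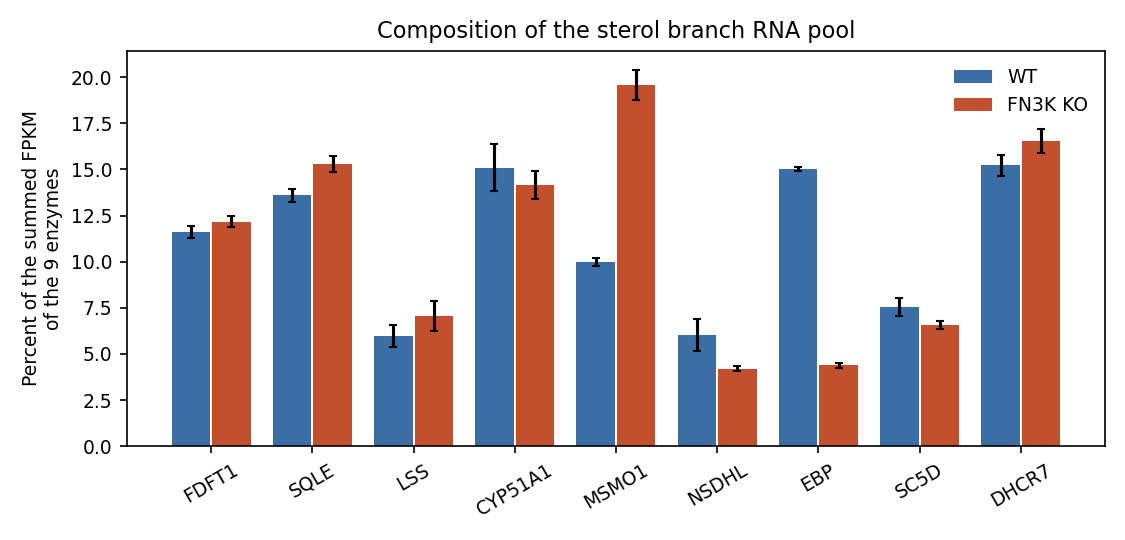
Share of each enzyme in the summed FPKM of the 9 sterol branch enzymes, in percent, as the mean (bar) and SD (line) of the 3 WT and the 3 FN3K KO libraries. MSMO1 takes 9.98% of the WT sum and 19.6% of the KO sum, and EBP 15.0% and 4.39%.

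Neighbours along the chain were compared within each library, as the difference of log2(FPKM + 1) between an enzyme and the one before it. For 7 of 8 neighbouring pairs the KO libraries did not overlap the WT libraries. How often pairs of other loci separate in this way was not examined. Among single loci, 23.6% lay wholly higher and 39.8% wholly lower in KO. Each of the 7 had an exact permutation p of 0.10 (two-sided, the smallest possible here) and 0.114 after Benjamini-Hochberg adjustment over the 8 pairs, so none could pass 0.05. The greatest upward differences from WT to KO were at MSMO1 and SC5D. MSMO1 minus CYP51A1 was −0.56 ± 0.15 in WT and 0.47 ± 0.12 in KO. Back-transformed to a ratio of FPKM + 1, MSMO1 over CYP51A1 was 0.68 in WT and 1.38 in KO. SC5D minus EBP was −0.93 ± 0.09 in WT and 0.57 ± 0.08 in KO. The greatest downward differences were at NSDHL and EBP. NSDHL minus MSMO1 was −0.67 ± 0.17 in WT and −2.18 ± 0.09 in KO, and EBP minus NSDHL was 1.22 ± 0.19 in WT and 0.06 ± 0.01 in KO. At the start of the chain the differences between groups were smaller, at 0.11 for SQLE minus FDFT1 and −0.24 for CYP51A1 minus LSS. DHCR7 minus SC5D differed by 0.37. LSS minus SQLE was −1.10 ± 0.10 in WT and −1.11 ± 0.20 in KO, with overlap (exact permutation p = 1).

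**Figure D4:**
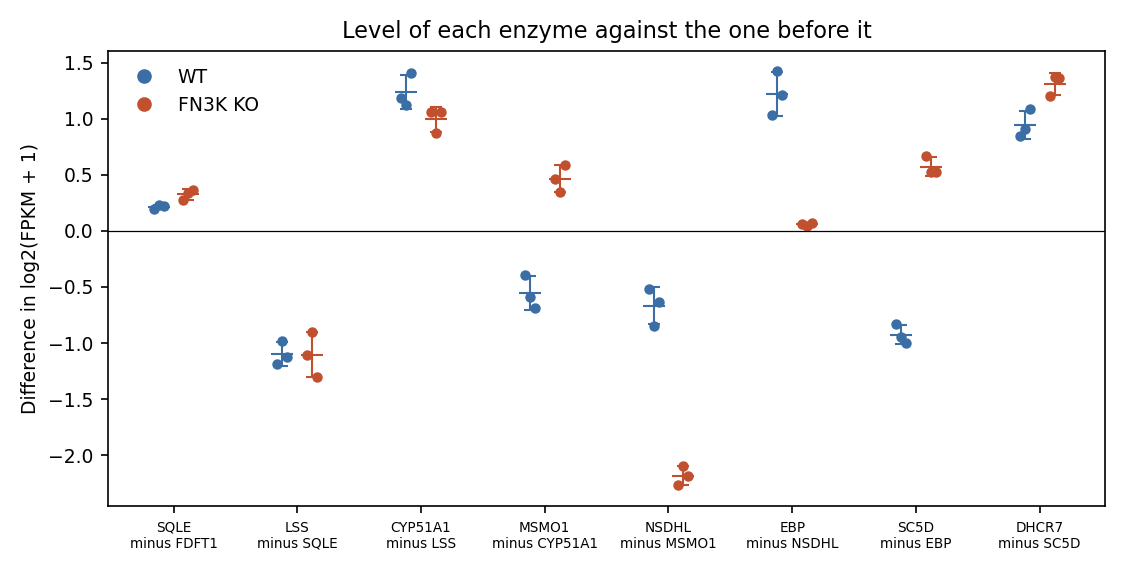
Difference in log2(FPKM + 1) between each sterol branch enzyme and the one before it, per library, for WT and FN3K KO, with the mean and SD of each group. The groups separate most at NSDHL minus MSMO1 and at SC5D minus EBP and overlap at LSS minus SQLE.

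Between plates of one group the enzymes moved by little. How many of all loci lay above their own group mean was not counted, so the counts below are a description. In WT replicate 1 only 1 of 9 (NSDHL) was above its WT mean, with a median deviation of −0.08 on the log2 scale against −0.05 over all loci. In WT replicate 2 it was 8 of 9, with a median deviation of 0.06 against 0.01 over all loci. In WT replicate 3 it was 7 of 9, at a median of 0.02 against 0.04 over all loci. In KO replicate 2 only 1 of 9 was above its KO mean, at a median of −0.05 against 0.03 over all loci. The 1 gene above its mean there was LSS. In KO replicate 1 it was 8 of 9, at a median of 0.02 against −0.015 over all loci. In KO replicate 3 it was 6 of 9, at 0.04 against −0.003. Single deviations of the 9 genes lay between −0.23 and 0.19 over all 6 libraries, beside a median difference of 2.46 between the groups.

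The loci whose profile over the 6 libraries was nearest to the mean profile of the 9 enzymes were, of 4917 named candidates, TXNIP, ALDOC, GPX3, UBD and VNN1. Likeness was the root mean square difference of WT-centred log2(FPKM + 1), which was 0.08 for TXNIP, 0.08 for ALDOC, 0.10 for GPX3, 0.11 for UBD and 0.13 for VNN1. TXNIP, an inhibitor of thioredoxin, had 0.429 ± 0.038 FPKM in WT and 5.82 FPKM in KO. GPX3, a secreted glutathione peroxidase, had 13.0 FPKM in WT and 61.2 FPKM in KO, and UBD, a ubiquitin-like modifier, 53.7 and 238 FPKM. ALDOC, an aldolase of glycolysis, had 1.48, 2.13 and 1.98 FPKM in WT and 12.5, 11.8 and 11.8 FPKM in KO, and VNN1, the enzyme that releases pantothenate from pantetheine, a mean of 0.318 FPKM in WT and 6.00 FPKM in KO. Among the enzymes themselves SC5D and CYP51A1 lay nearest to the mean profile, each at 0.09, and MSMO1 at 0.76 and EBP at 1.14 lay farthest. The 1 FPKM added before taking logs shrinks the folds of low genes, and this likeness depends on it. The ratio of mean FPKM, KO over WT, was 13.5 for TXNIP and 18.9 for VNN1, both under 1 FPKM in WT, against 1.62 to 10.9 for the 9 enzymes, while their folds on the log2(FPKM + 1) scale were 4.75 and 5.30. These 5 loci were picked by their likeness, so their values are a description, with no test.

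Of the other enzymes of the same chain, TM7SF2, HSD17B7 and ERG28 were not analysed here. LBR, a nuclear envelope protein that is also a C14 sterol reductase, had 14.9 ± 2.32 FPKM in WT and 14.6 ± 1.29 FPKM in KO, with overlapping libraries (log2 fold change −0.02, SE 0.12; limma adjusted p = 0.9). The sign for LBR was positive when libraries were scaled to a common 75th percentile or when the library covariate of the Ballgown package was put into an ordinary linear model (the Ballgown library adjustment).

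The electron donors of the sterol oxidases are shared with many other reactions, and all 6 were listed. Of these, 4 were higher, 1 was lower and 1 did not pass, with a median log2 fold change of 0.35. The shares over all loci were 21.2% higher and 36.5% lower. CYB5B, the outer mitochondrial cytochrome b5, had 27.8 ± 1.27 FPKM in WT and 59.2 ± 5.20 FPKM in KO, a log2 fold change of 1.06 (SE 0.07; limma adjusted p = 6.8e-06). CYB5A, the microsomal cytochrome b5 that serves SC5D and MSMO1, changed by 0.37 on the log2 scale, and its reductase CYB5R3 by 0.49. PGRMC1, a heme protein that binds cytochromes P450, changed by 0.32. CYB5R1 had a log2 fold change of 0.16 (SE 0.10; limma adjusted p = 0.18). POR, the P450 reductase that feeds CYP51A1 and SQLE, went the other way, with 237, 221 and 235 FPKM in WT and 163, 167 and 179 FPKM in KO (log2 fold change −0.44, SE 0.06; limma adjusted p = 0.00031). POR nevertheless stood above each of the 9 enzymes in mean FPKM in both groups. The calls for POR and CYB5R3 were lost with the Ballgown library adjustment.

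Upstream, 6 of 9 mevalonate branch enzymes were listed, and MVK, IDI2 and FDPS were not analysed here. Of the 6, 5 were higher and none lower, where 21.2% of all loci were higher and 36.5% lower. Their median log2 fold change was 2.34, beside 2.46 for the 9 sterol enzymes in the same comparison of libraries. HMGCS1, HMG-CoA synthase, changed by 3.19 and MVD, the decarboxylase, by 3.12. IDI1, the isomerase, changed by 2.63 and the thiolase ACAT2 by 2.04. PMVK, phosphomevalonate kinase, did not pass, at 11.2 ± 1.11 FPKM in WT and 11.6 ± 1.97 FPKM in KO (log2 fold change 0.04, SE 0.12; limma adjusted p = 0.79).

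From farnesyl diphosphate other branches lead to dolichol, ubiquinone and prenylated proteins, and of 13 genes of these branches 6 were listed. Here 3 were higher and 3 lower, beside 21.2% and 36.5% of all loci, with a median log2 fold change of 0.01. RABGGTA, which attaches geranylgeranyl groups to Rab proteins, had a log2 fold change of 1.05, GGPS1, geranylgeranyl diphosphate synthase, 0.43 and ICMT, which methylates prenylated proteins, 0.26. NUS1, a subunit of the dolichol synthase, had −0.49 and FNTA, a farnesyltransferase subunit, −0.54. RABGGTA, GGPS1, NUS1 and FNTA lost the call with the Ballgown library adjustment.

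**Figure D5:**
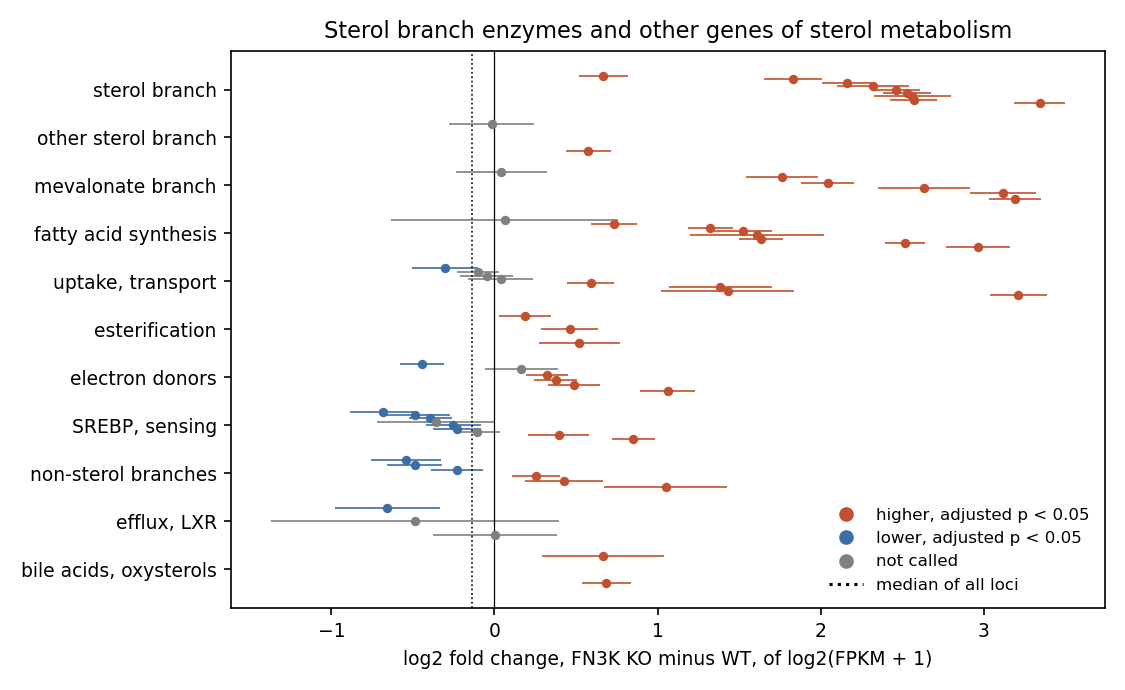
Log2 fold change (FN3K KO minus WT) of each listed gene in the sterol branch and in related gene lists, 1 point a gene, with its 95% interval as a line and its call at an adjusted p under 0.05 as the colour. The 9 sterol branch enzymes lie between 0.67 and 3.34, and the 6 mevalonate enzymes between 0.04 and 3.19, while the SREBP processing genes lie between −0.69 and 0.85.

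The regulators of the pathway did not move as one group. Of 11 genes for SREBP processing and sterol sensing 9 were listed, and INSIG1 and MARCHF6 were not analysed here. Of the 9, 2 were higher, 5 lower and 2 did not pass, with a median log2 fold change of −0.25. Over all loci 21.2% were called higher and 36.5% lower, and the counts of this list were not tested against those shares. SREBF2, which encodes SREBP2, had 28.1 ± 1.22 FPKM in WT and 51.5 ± 1.70 FPKM in KO, a log2 fold change of 0.85 (SE 0.06; limma adjusted p = 5.5e-06). SREBF1 had 24.4 ± 2.37 FPKM in WT and 32.3 ± 2.14 FPKM in KO, a log2 fold change of 0.39 (SE 0.08; limma adjusted p = 0.0034). MBTPS1, the first protease that cleaves SREBP, had 45.0 ± 3.32 FPKM in WT and 27.7 ± 2.98 FPKM in KO (log2 fold change −0.69, SE 0.09; limma adjusted p = 0.00022). With the Ballgown library adjustment 1 gene of this list was called higher and 1 lower, and SREBF1 and MBTPS1 were not called.

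Among 12 genes of uptake and transport 8 were listed, of which 4 were higher, 1 lower and 3 not called. Of all loci, 21.2% were called higher and 36.5% lower. STARD3, a late endosomal sterol carrier, had the lowest log2 fold change, −0.30, and was not called without WT replicate 1 or 3 or without KO replicate 1 or 3, nor with the Ballgown library adjustment.

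On the export and storage side the values were small. The counts that follow stand beside 21.2% of all loci called higher and 36.5% called lower. Of 6 genes of efflux and liver X receptors 3 were listed, with 0 higher and 1 lower. ABCG8, half-transporter of biliary sterols, had a log2 fold change of −0.66, NR1H3 −0.49 and NR1H2 0.00, and the last changed sign with the scaling. Of 4 genes that form or split sterol esters 3 were listed, and all 3 were higher. The esterifying enzymes SOAT1 and LCAT changed by 0.52 and 0.46 on the log2 scale. NCEH1, which splits the esters and does not form them, changed by 0.19 and lost its call in 10 of 13 alternatives. Of 14 genes of bile acid and oxysterol synthesis only SCP2 and AMACR were listed, at 0.69 and 0.66, both called. The calls for ABCG8, LCAT and AMACR were lost with the Ballgown library adjustment. Of 10 fatty acid synthesis genes, which answer to SREBP1, 8 were listed, 7 were higher and none lower, with ACSS2, the cytosolic acetyl-CoA synthetase, highest at 2.97 and ACACA not called at 0.06 (SE 0.31).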

How the data were processed

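RNA was sequenced from 3 WT and 3 FN3K KO HepG2 libraries. Per the labels, mRNA was enriched with oligo(dT). The authors mapped reads with HISAT2 and assembled transcripts with StringTie 2.0.6 (GRCh38.p5 in the submitters' processing notes) and deposited 1 FPKM value per locus and library. Read counts were not used, and among the 300 loci of lowest mean no whole-read step was found (at most 1 locus shared a ratio between libraries, tolerance 1e-05, over 15 pairs), so depth is unknown and no detection limit is given.

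All 6357 loci were fitted with limma 3.58.1 under R 4.3.3 (lmFit and eBayes, trend = TRUE), KO minus WT, with no filter, using log2(FPKM + 1). Adjusted p-values are Benjamini-Hochberg over all loci. Fold changes are back-transformed from that scale, with 95% intervals. Exact permutation tests were two-sided. Groups came from the sample titles. Genes were matched by current and older symbols in a table of names, and coordinates come from GENCODE 29. The script was tested on simulated data.

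The 9 enzymes and the other lists were chosen with earlier results of these data known. Named are the 9, FN3K, the highest and lowest gene of each list, all genes of lists with at most 6 listed, a set of regulators and enzymes (among them INSIG1, SREBF1, SREBF2 and HSD17B7), and the 5 nearest profiles. A few genes that this rule names are left out here. The fit was repeated with pseudocount 0.1, with only loci of mean 1 FPKM or more, after scaling to one 75th percentile or one FPKM sum, with no variance trend, with the Ballgown library adjustment (an ordinary linear model with a library covariate), with a replicate block, and without each library in turn.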

Additional observations from a re-analysis of the deposited data

How the results depend on the processing

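The 9 enzymes kept their direction and their call in 117 of 117 refits (9 genes under 13 alternatives). Their median log2 fold change was 2.46, and 2.55 with the Ballgown library adjustment. Over all loci 3670 passed an adjusted p under 0.05 (limma), of which 36.7% were higher, against 1127 with that adjustment (606 higher and 521 lower, 53.8% higher), and the cause was not tested. With the replicate block 3707 loci passed, and 9 of the 9 enzymes. Whether the replicate numbers pair the samples is not given in the sources used here. Deviations of same-numbered WT and KO libraries correlated at 0.006 to 0.046 over loci. For differently numbered libraries it was −0.045 to 0.035. With 3 libraries a group these values cannot decide it. Genes near 0 changed sign. LBR was 0.027 at a common 75th percentile and 0.32 with the Ballgown adjustment, the log2 fold change of NR1H2 was −0.020 at a common FPKM sum and −0.15 with the Ballgown adjustment, and NR1H3 was 0.35 with the latter. With 1 library left out, the values ran from −0.15 to 0.051 for LBR, −0.067 to 0.16 for PMVK, −0.19 to 0.11 for NR1H2 and −0.21 to 0.35 for ACACA. None of these genes passed the test in any of these fits. Depth is unknown, and 3 libraries a group limit the precision of each value.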
